A study of Rattus norvegicus with 10 samples.

Results

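The potassium channel genes described here are 6 of the 32883 genes in the deposited table: Kcnab3, Kcns1, Kcnh8, Kcna7, Kcnk5 and Kcnn4. They are the genes whose symbol begins with Kcn, whose Ensembl identifier could be paired with that symbol, and whose mean normalized count over the 10 libraries was at least 10. The deposited table lists genes by identifier alone, and identifiers were paired with symbols through the readable rows of the authors' lists of differentially expressed genes (DEGs), which hold upregulated genes. Of the 97 Kcn symbols in the RefSeq table, 8 could be paired, and the other 89 are not analysed here. The 6 genes are therefore not the potassium channel family as a whole, and no count of rising against falling channel genes can be taken from them. All 6 stand in the readable rows for trichostatin A (TSA). They were thus selected on their rise with TSA in these same libraries, beside their mean normalized count, and their values with TSA are given as a description with no p-value. All 6 had higher means with both drugs than in the controls, from 2.46-fold for Kcnh8 with NaB to 16.9-fold for Kcnab3 with TSA.

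RNA was sequenced from primary cultures of the cortex of newborn Wistar rats, prepared at postnatal day 0 to 1 and treated on day 14 in vitro without washout. The groups were 3 libraries of cultures kept for 19 h with 100 nM TSA, 3 of their time-matched controls, 2 of cultures kept for 24 h with sodium butyrate (NaB), and 2 of their own controls. The NaB dose stands as 5 µM in the sample labels and as 5 mM in the methods text. Both drugs inhibit histone deacetylases (HDACs), which take acetyl groups off histone tails, and the experiments asked which genes change when these enzymes are blocked. The NaB libraries came from a separate project, so that drug, incubation time and project cannot be told apart. The cultures hold neurons and glia, and none of the 11 neuronal markers or 9 astrocyte markers listed for this work had a paired identifier, so that the labelled cell type was not checked here. The libraries held 26070908 to 27649249 recovered reads. At this depth a library with 3 reads of a gene has a normalized count of 2.71 to 3.20, and smaller values are at the limit of counting.

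Potassium channels let potassium ions leave the cell and so set the resting potential, end action potentials and limit repetitive firing. Voltage-gated channels are built from several pore subunits, which may be joined by silent subunits that form no channel alone and by auxiliary subunits in the cytoplasm. Two-pore-domain channels pass a leak current, calcium-activated channels open when calcium rises in the cell, and inward rectifiers hold the membrane near its resting level. The 6 genes fall into each of these groups except the inward rectifiers, whose paired members, Kcnj8 and Kcnj5, had means below 10.

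RefSeq promoter sequence (build GRCr8, from 250 bases before to 50 after the gene start) was at hand for 4 of the 6 genes. The promoters of Kcnab3, with the highest fold change with TSA of the 6 genes, and of Kcnk5, with the lowest, are shown because they differ in a short motif, the GC box. The sequences run 5′ to 3′ on the strand of the gene, and capitals mark the GC box GGGCGG or its reverse complement, CCGCCC. Kcnab3 lies on the plus strand at chr10:54546388-54546687 and Kcnk5 on the plus strand at chr15:4171375-4171674.
Kcnab3: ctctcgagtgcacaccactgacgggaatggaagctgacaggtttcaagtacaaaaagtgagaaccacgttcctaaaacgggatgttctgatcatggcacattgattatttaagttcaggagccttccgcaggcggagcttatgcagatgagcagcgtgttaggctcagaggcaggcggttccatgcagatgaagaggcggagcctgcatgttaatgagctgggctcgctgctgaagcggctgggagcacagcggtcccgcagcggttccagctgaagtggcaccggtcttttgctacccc
Kcnk5: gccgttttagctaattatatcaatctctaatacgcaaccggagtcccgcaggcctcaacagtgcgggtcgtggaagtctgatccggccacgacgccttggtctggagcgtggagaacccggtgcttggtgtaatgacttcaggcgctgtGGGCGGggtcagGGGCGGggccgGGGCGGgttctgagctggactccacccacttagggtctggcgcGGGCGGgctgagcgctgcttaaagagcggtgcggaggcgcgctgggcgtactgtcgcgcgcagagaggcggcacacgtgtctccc
The Kcnab3 promoter held no GC box and the Kcnk5 promoter 4, while that of Kcns1 held 2 and that of Kcnh8 held 1. With NaB the highest log2 fold change of the 6 genes was that of Kcns1 (3.55) and the lowest that of Kcnh8 (1.26). A relation between the motif and the changes was not tested. Of all 33469 RefSeq promoters of the same length, 33.1% held the motif on either strand. All 4 promoters were richer in CpG dinucleotides than the median promoter, which had 7, with 15 in Kcnab3, 23 in Kcns1, 14 in Kcnh8 and 30 in Kcnk5. A TATA box (TATAAA on either strand) was in none of the 4 windows and in 14.2% of all promoters. A match of letters is a description of the sequence and does not show that a factor binds there.

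Across the 6 genes, every TSA-treated library lay above every one of its controls, and every NaB-treated library above every one of its own. The separation with TSA was favoured by the way the genes were found, and over all tested genes the same held for 33.1% with TSA and 40.2% with NaB. The NaB libraries are separate from the TSA libraries, and the TSA rows alone would have named the same 6 genes, so that the change with NaB could be tested. With NaB, 6 of 6 genes rose (limma, Benjamini-Hochberg adjusted p below 0.05 over 15717 tested genes and a log2 fold change of at least 0.5), where 21.2% of all tested genes rose by the same rule. The nearer comparison is with the other genes that owe their names to the TSA rows. Of the 1593 such genes with a mean of at least 10, 88.6% rose with NaB, so that 6 of 6 is close to what the pool of named genes gives. Kcnn4 reached the mean of 10 only through treated libraries. With the mean taken over the 5 controls instead, a limit added after its values were seen, 5 of 5 channel genes rose with NaB beside 87.6% of 1160 genes of the pool. The median log2 fold change with NaB was 2.17 over the 6 genes, 1.76 over that pool and 0.02 over all tested genes. The same thresholds were passed with TSA by 22.5% of all tested genes and with both drugs by 17.0%. All 6 channel genes were past them with TSA, and with the calls for NaB also with both drugs, but as they were chosen from genes that rose with TSA, nothing is read from those counts. Of all tested genes, 19.7% fell with TSA and 20.3% fell with NaB, and 0 of the 6 did with either drug. For TSA the choice of genes fixed this. For NaB it made a fall unlikely, as 88.6% of the pool rose, and nothing is read from the 0 with either drug.

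**Figure D1:**
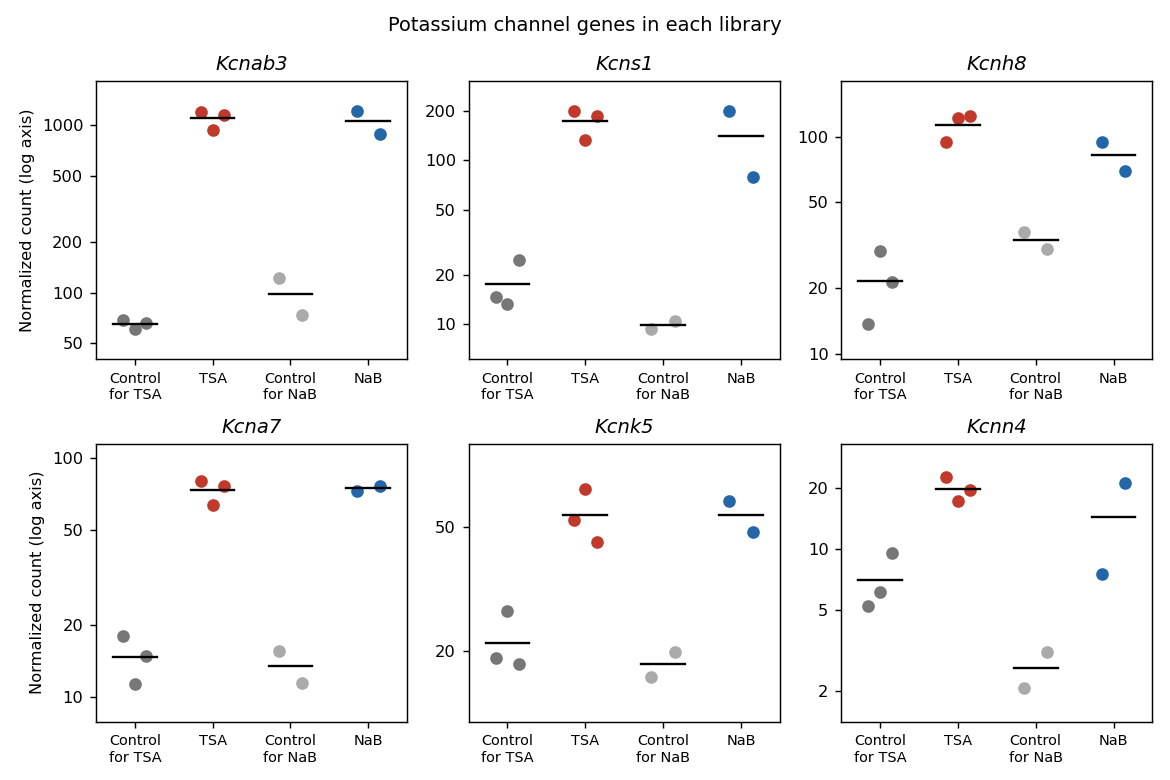
Normalized count (log axis) of the 6 potassium channel genes in each of the 10 libraries, with 1 point per library and a black line at the mean of each group. Treated points lie above the points of their own controls in every panel, and the wide spread of the NaB points for Kcns1 (79.1 and 200.3) and Kcnn4 (7.56 and 21.2) can be seen.

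Among the pore subunits of voltage-gated channels, Kcna7 and Kcnh8 were measured. Kcna7 (ENSRNOG00000020779) encodes a subunit of the Kv1 group, the Shaker-related channels. Its normalized counts were 17.9, 11.3 and 14.9 in the TSA controls and 79.7, 63.3 and 75.8 with TSA. The NaB controls had 15.5 and 11.5, and NaB-treated cultures 72.8 and 76.2. The treated groups overlapped each other, as did the 2 sets of controls, and no treated library came near a control. The ratio of the means was 4.95 with TSA and 5.51 with NaB. On the log2(normalized count + 1) scale the change was 2.25 with TSA (standard error 0.24) and 2.39 with NaB (standard error 0.29, adjusted p = 8.86e-05, limma). Of the 6 genes, Kcna7 was the one whose changes with the 2 drugs lay closest together. Without any 1 library the adjusted p with NaB of Kcna7 stayed below 0.05.

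Kcnh8 (ENSRNOG00000058626) encodes a channel of the ELK group of ether-à-go-go relatives. Its normalized counts were 13.7, 29.9 and 21.3 in the TSA controls and 94.7, 122 and 124 with TSA, and NaB-treated cultures had 94.5 and 69.4 where their controls had 36.2 and 30.3. The controls for NaB started above all 3 controls for TSA, though the nearest libraries of the 2 sets had 29 reads each. Both NaB-treated libraries ended below all 3 TSA-treated libraries, the first of them by a narrow margin. The ratio of the means was 5.26 with TSA and 2.46 with NaB. The log2 fold change was 2.40 with TSA (standard error 0.28) and 1.26 with NaB (standard error 0.34, adjusted p = 0.00981, limma). Kcnh8 thus had the lowest change with NaB of the 6 genes, and its call rested on single libraries. Without the control library 5 its adjusted p with NaB was 0.0543, and without the NaB library 1 it was 0.0776 (limma). In the RefSeq table, 4 genes that do not code for protein overlap Kcnh8, and since the strand setting of the counting is not given in the sources used here, reads of overlapping genes cannot be told apart.

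Kcns1 (ENSRNOG00000013681) encodes a silent subunit, which makes no channel by itself and alters the Kv2 channels it joins. Its normalized counts were 14.8, 13.4 and 24.5 in the TSA controls and 199, 133 and 186 with TSA. In the NaB experiment they were 9.32 and 10.4 without the drug and 200.3 and 79.1 with NaB. The second NaB library was below every TSA-treated library, while the first was just above them all. The ratio of the means was 9.82 with TSA and 14.1 with NaB. The log2 fold change was 3.25 with TSA (standard error 0.35) and 3.55 with NaB (standard error 0.43, adjusted p = 8.23e-05, limma), which placed Kcns1 251st of 15717 genes by its rise with NaB. With the first NaB library left out the log2 fold change of Kcns1 was 2.88, and with the second left out it was 4.21, and both passed.

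Kcnab3 (ENSRNOG00000008480) encodes a beta subunit, an auxiliary protein that sits on the cytoplasmic side of Kv1 channels and modifies their inactivation. It had the most reads of the 6 genes and the largest rise with TSA among them. Its normalized counts were 68.6, 60.8 and 66.1 in the TSA controls and 1208, 942 and 1152 with TSA. With NaB they were 1218 and 893, against 123 and 74.1 in its controls. The treated groups overlapped, and the controls for NaB both lay above the controls for TSA. The ratio of the means was 16.9 with TSA and 10.7 with NaB. The log2 fold change was 4.05 with TSA (standard error 0.19), the 157th largest rise of 15717 genes, and 3.43 with NaB (standard error 0.24, adjusted p = 5.15e-06, limma), the 284th largest. The ratio of each TSA library to the control of the same number was 15.5 to 17.6. The treated levels were thus alike with both drugs, while the ratios differed with the controls.

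Kcnk5 (ENSRNOG00000047005) encodes a two-pore-domain channel of the TASK and TALK relatives, a leak channel that opens in alkaline medium. Its normalized counts were 19.0, 26.8 and 18.1 in the TSA controls and 52.5, 66.0 and 44.7 with TSA. In the NaB experiment they were 16.6 and 19.8 in the controls and 60.5 and 48.2 with NaB. The groups kept apart within each experiment and overlapped between the experiments. The ratio of the means was 2.55 with TSA and 2.99 with NaB. The log2 fold change was 1.32 with TSA (standard error 0.25) and 1.52 with NaB (standard error 0.30, adjusted p = 0.00181, limma). Kcnk5 and Kcnh8 are the 2 genes that stand in the readable TSA rows only, so that they did not owe their names to the NaB rows, although the NaB-treated libraries count in the mean of the rule. In the RefSeq table, 1 gene that does not code for protein overlaps Kcnk5.

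Kcnn4 (ENSRNOG00000019440) encodes the calcium-activated channel of intermediate conductance, which opens through calmodulin and is best known from blood cells and microglia. With a mean of 11.4 it was the gene nearest to the limit of 10 from the inside, followed by Kcnk5 with 37.2. Its mean was 5.25 over the 5 controls, 10.7 without the NaB-treated libraries and 7.86 without the TSA-treated libraries, so that the TSA-treated libraries carried it past the limit. Its normalized counts were 5.27, 6.18 and 9.60 in the TSA controls and 22.5, 17.2 and 19.4 with TSA. In the NaB experiment they were 2.07 and 3.13 in the controls, which are 2 and 3 reads, and 7.56 and 21.2 with NaB. The first NaB library lay within the range of the controls for TSA, though above both of its own controls. The ratio of the means was 2.81 with TSA, and against 3 reads per library the level with NaB was at least 4.61-fold higher. That limit was 2.42-fold without the NaB library 2 and 6.80-fold without the NaB library 1. The fitted log2 fold change was 1.40 with TSA (standard error 0.41) and 1.95 with NaB (standard error 0.50, adjusted p = 0.00777, limma). This fit averages log2(normalized count + 1), so that its value with NaB is not on the scale of that limit and can lie below it. With a pseudocount of 0.5 or 5 in place of 1 the value with NaB was 2.11 or 1.26. Without the NaB library 2 the adjusted p of Kcnn4 was 0.0854, and with all 5 control libraries as 1 group it was 0.051, so that the call with NaB depended on that library and on the choice of controls.

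**Figure D2:**
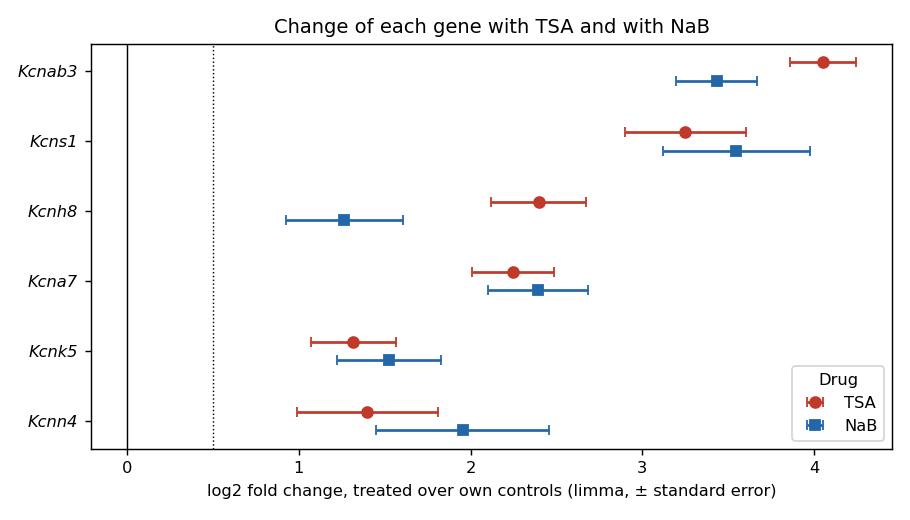
Log2 fold change of each gene with TSA (red circles) and with NaB (blue squares) against its own controls, from limma on log2(normalized count + 1), with bars of 1 standard error and a dotted line at the threshold of 0.5. The values run from 1.32 to 4.05 with TSA and from 1.26 to 3.55 with NaB, and Kcnh8 shows the widest gap between the drugs.

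Subtracting the log2 fold change with TSA from that with NaB gave -1.13 for Kcnh8 (standard error 0.44), -0.62 for Kcnab3 (standard error 0.30), 0.14 for Kcna7 (standard error 0.38), 0.21 for Kcnk5 (standard error 0.39), 0.30 for Kcns1 (standard error 0.55) and 0.55 for Kcnn4 (standard error 0.65). The differences are given with no test, because the change with TSA entered the choice of the genes. That of Kcnn4 also depends on the pseudocount of the fit. Both controls for NaB lay above all controls for TSA in Kcnh8 and Kcnab3 and below them all in Kcns1 and Kcnn4. The margins were narrow in Kcnh8, where the nearest controls had 29 reads each, and in Kcnn4, where they had 3 and 5.

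**Figure D3:**
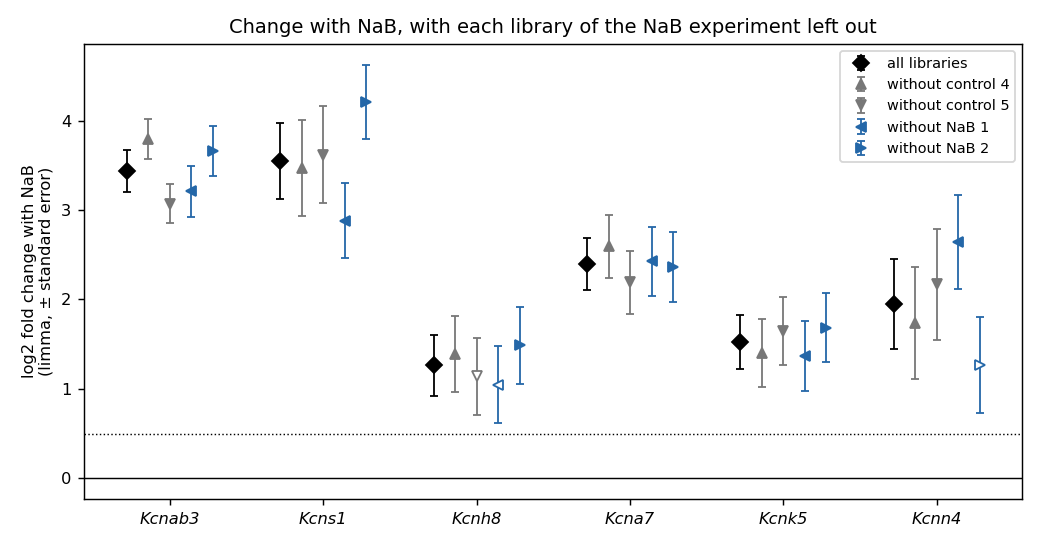
Log2 fold change with NaB (limma, bars of 1 standard error) of each gene with all libraries (black diamonds) and with 1 library of the NaB experiment left out (grey for controls, blue for treated), where open symbols mark an adjusted p of 0.05 or more. The open symbols are 2 for Kcnh8 (1.14 and 1.05) and 1 for Kcnn4 (1.26), and no value lies below the dotted threshold of 0.5.

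Just outside the rule were the inward rectifier genes Kcnj8, with a mean of 5.68, and Kcnj5, with a mean of 3.67. Kcnj8 (ENSRNOG00000013463) encodes a pore subunit of the ATP-sensitive potassium channel and was counted with 0, 0 and 1 reads in the TSA controls and 4, 6 and 12 reads with TSA. Its reads numbered 11 and 20 with NaB, where the controls had 2 and 3. Kcnj5 (ENSRNOG00000033796) encodes a pore subunit of the channels that G proteins open, and it had 2, 0 and 3 reads in the TSA controls and 4, 5 and 11 with TSA. In the NaB experiment it had 0 and 0 reads in the controls and 5 and 8 with NaB. In both genes the treated libraries lay above their controls, at levels close to the limit of counting, and neither is given a test.

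Of 20 channel partners outside the Kcn symbols listed for this work, 2 could be paired, and both were named through the TSA rows alone. Abcc9 (ENSRNOG00000036960), the regulatory subunit that joins the product of Kcnj8 in the ATP-sensitive channel and the coding gene next to it in the RefSeq order, had normalized counts of 28.5, 11.3 and 10.7 in the TSA controls and 73.1, 52.5 and 49.6 with TSA. With NaB it had 91.7 and 61.7 against 51.8 and 25.1. The log2 fold change of Abcc9 in the NaB experiment was 1.04 ± 0.49 (standard error) and did not pass (adjusted p = 0.0954, limma). Lrrc38 (ENSRNOG00000015264), an auxiliary protein of the large-conductance calcium-activated channel, went from 9.32 and 14.6 to 43.5 and 28.9 with NaB and passed (log2 fold change 1.52 ± 0.45, adjusted p = 0.0151, limma). Of 11 potassium pumps and cotransporters, 1 could be paired. This gene, Slc12a7 (ENSRNOG00000016372), a potassium-chloride cotransporter, had normalized counts of 55.9 and 127 without NaB and 329 and 474 with it, and passed as well (log2 fold change 2.21 ± 0.37, adjusted p = 6.35e-04, limma). It stands in the rows of both drugs, and the TSA rows alone would have named it. These 2 passes out of 3 stand beside the 88.6% of the pool named through the TSA rows and 21.2% of all tested genes, and nothing particular to the 3 genes is read from them. None of the 4 HCN channel genes could be paired.

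Since these are bulk cultures, more cells of a type and more RNA per cell cannot be told apart. Kcnn4 is known from microglia and Kcnj8 from mural cells of vessels, and the few markers of such cells with a paired identifier moved as follows. Of 8 microglial markers 1 was paired, Tmem119 (ENSRNOG00000000700), at 2.11, 1.03 and 5.33 in the controls for TSA and 5.63, 4.52 and 1.94 with TSA. In the NaB experiment it had 1.04 and 2.09 without the drug and 15.1 and 11.6 with it, an increase for which it was listed and which is given with no test. With TSA, Tmem119 overlapped its controls and did not pass (adjusted p = 0.459, limma). Of 6 mural cell and fibroblast markers 3 were paired. With TSA the mean of Rgs5 (ENSRNOG00000002730) was 28.5 against 3.50 in the controls and that of Des (ENSRNOG00000019810) was 31.1 against 8.40, values for which both were listed and which are given with no test. Both genes, like the endothelial marker Flt1, stand in the rows of both drugs, so that the TSA rows alone would have named them. They rose with NaB, at log2 fold changes of 2.59 and 2.90 (adjusted p = 7.05e-04 and 2.20e-04, limma). Col1a1 (ENSRNOG00000003897), the one with the most reads, varied from 47.4 to 1379 among the controls for TSA and did not pass with TSA (adjusted p = 0.381, limma). With NaB it had 876 and 961 against 149 and 137, values for which it was listed. Its adjusted p with NaB was 0.0735 (limma). The fit shares 1 spread over all groups, which the TSA controls widen for Col1a1, so that nothing is read from this p-value. Summed over the 3, of which Col1a1 makes up most and so sets the sum, the list had 920, 59.7 and 1392 in the TSA controls and 873, 749.9 and 929 with TSA, and 162 and 157 against 989 and 1080 in the NaB experiment. Flt1 (ENSRNOG00000000940), 1 of 5 listed, had 98.5, 85.0 and 109 with TSA against 3.16, 1.03 and 3.20, at least 30.9-fold higher than 3 reads per library. It went from 5.18 and 3.13 to 74.7 and 89.7 with NaB (log2 fold change 4.04, adjusted p = 3.25e-05, limma). None of these 5 marker genes was at 0 in any library. In the controls for TSA, however, Tmem119 had 1 to 5 reads, Flt1 1 to 3 and Rgs5 2 to 4, close to the limit of counting. The part of the 5 markers in the change of the channel genes was not tested. Of 6 markers of excitatory neurons, 8 of interneurons and 11 of the oligodendrocyte lineage, none could be paired. Only genes in the rows of upregulated genes could be paired, so that markers that fell could not be found. Of the pool named through the TSA rows, 88.6% rose with NaB, and nothing about cell types is read from the markers that rose.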

How the data were processed

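RNA sequencing of 10 libraries was analysed. The authors mapped reads to Rnor_6.0 with STAR 2.7.9a, counted them per gene with featureCounts 2.0.1 and normalized them with DESeq2 1.29 (versions from the submitters' processing notes). The deposited signal is thus a normalized count, in which every gene of a library was divided by the same size factor. Dividing by the lowest nonzero value of the library turned 100% of the nonzero values into whole reads (tolerance 0.01). Since the values are normalized, they were tested with limma 3.58.1 with a trend on log2(normalized count + 1).

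Of 32883 genes, 15717 passed filterByExpr (minimum count 10), the 6 channel genes among them. All 10 libraries were fitted in 4 groups. Tests were two-sided, with thresholds of 0.05 (adjusted p) and 0.5 (absolute log2 fold change). Where no control had more than 3 reads, the fold was set against 3 reads per library and is a lower bound. Symbols came from 1911 readable identifier and symbol pairs in the authors' DEG lists, whose fold changes and p-values were not used. The RefSeq table (GRCr8) gave no identifier match. The genes and lists were chosen with earlier results of these data known, and all 6 genes fall under the rule for named genes, which asked for the strongest and most abundant members of each channel class. That rule's falling members, and comparisons of level between genes per length, are not analysed here.

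Paired libraries correlated after group means were removed (r = 0.284, 0.392 and 0.314 for the TSA pairs, taken from the numbers in the titles; per the paper each control was grown on the plate of its treated culture). The NaB libraries share no number with their controls, and their pairs in the block fit, taken in the order of the names (r = 0.342), are an assumption. The spread within groups exceeded sampling noise (chi-square per degree of freedom 8.34 to 30.95). The paper speaks of cultures of different biological replicates, and the labels do not say which animals a library came from, so that p-values measure the spread between libraries. The fits were tested on simulated data. Alternatives were DESeq2 1.42.0 and edgeR 4.0.16 on recovered reads, other scalings, filters, pseudocounts and thresholds, the replicate block, and each library left out.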

Additional observations from a re-analysis of the deposited data

How the results depend on the processing

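The direction of all 6 genes was upward with both drugs in every alternative fit that held them. The change with NaB kept its call in 125 of 129 fits of a gene under an alternative, and lost it in 4, which are those given for Kcnh8 and Kcnn4 in the text. The 129 include fits without a library of the TSA experiment, which could not move the log2 fold change with NaB, only its standard error and adjusted p. The log2 fold change with NaB was between 1.05 and 1.66 for Kcnh8 over its alternatives and between 1.26 and 2.64 for Kcnn4. The number of genes called with NaB was 6, as were the numbers with TSA and with both drugs, which rest on the choice of genes, and all fell to 3 when a mean of at least 50 was asked for, as a filter on the table or as the limit for a member, because 3 of the genes have lower means. The replicate block changed none of these calls and gave 6 with NaB, with the NaB pairs assumed. Scaling by library totals in place of size factors moved the median over all tested genes to 0.20 with TSA and 0.13 with NaB (log2), and 6 of 6 genes were still called with NaB. Leaving out 1 library gave 5 to 6 genes called with NaB or with both drugs, and 6 with TSA. Of the paired Kcn genes, Kcnn4, Kcnj8 and Kcnj5 had the lowest means, with at most 24 reads in a library, so that relative counting error is largest for them.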

Other observations

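Kcna7 lies next to Ntf4 in the order of coding genes of the RefSeq table. Ntf4 (ENSRNOG00000020783), the gene of a neurotrophin, was looked up after the values of Kcna7 were known, for its position alone. It had 0, 0 and 1 recovered reads in the TSA controls and 28, 19 and 27 with TSA, at least 7.37-fold higher than 3 reads per library. Cultures with NaB had 21 and 12 reads where their controls had 2 and 0, at least 5.04-fold higher. Ntf4 was paired through the same rows of upregulated genes as Kcna7, and the other coding neighbours of the 6 channel genes are not analysed here.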
